A study of Mus musculus with 8 samples.

Results

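Chemokine receptors were followed in RNA-seq counts of mouse CD4 T cells recovered from immunodeficient hosts. The set holds 9 receptor genes, picked by symbol from the 11354 genes of the count table: Ccr1, Ccr2, Ccr6, Ccr7, Ccr8, Cxcr3, Cxcr4, Cxcr6 and Cx3cr1. All 9 were present and all 9 were tested. They were separated into 6 receptors best known from T cells (Ccr6, Ccr7, Ccr8, Cxcr3, Cxcr4 and Cxcr6) and 3 best known from monocytes, macrophages and dendritic cells (Ccr1, Ccr2 and Cx3cr1).

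Each library held donor CD4 T cells of strain background Black6 that had been moved into RAG-/- hosts: 4 libraries are labelled Nlrp6-/- (KO 1, KO 2, KO 4 and KO 5, after the host number) and 4 are labelled wild type (WT 1, WT 2, WT 4 and WT 5). Nlrp6 encodes an innate immune sensor of the inflammasome family. RAG-/- mice lack their own lymphocytes of the T and B lineages but keep monocytes, macrophages, dendritic cells and neutrophils. The sources used here do not give ages, the interval after transfer, the design of the Nlrp6 allele or how the cells were purified. The labels name the spleen of the host in one field and the lamina propria of the colon in another, and do not say whether a shared host number is 1 mouse, so the p-values rest on how these libraries vary, which may be technical.

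Chemokine receptors are cell-surface receptors that couple to inhibitory G proteins and steer cells along gradients of small secreted proteins, the chemokines. In T cells they sort cells by destination: Ccr7 leads naive and central memory cells into lymph nodes, Cxcr3 marks type 1 effector cells, Ccr6 marks Th17 cells, and Cxcr6 is common on T cells that stay in tissues. Ccr2 releases monocytes from the bone marrow, Cx3cr1 is the fractalkine receptor of monocytes and intestinal macrophages, and Ccr1 serves monocytes and neutrophils. Several are shared between lineages, since mature dendritic cells carry Ccr7 and effector T cells can carry Ccr2 and Cx3cr1.

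Totals ranged from 35198192 to 40310721 counts per library. Nlrp6 itself went against the labels, with 329 to 648 counts in the libraries labelled KO and 3 to 8 counts in the libraries labelled WT, so each direction given here is that of a label and not of a genotype. The 14 measured T cell identity genes summed to 10320 to 10800 CPM under the KO label and 10570 to 12060 CPM under the WT label, where CPM are counts divided by the library total scaled with edgeR's TMM factors. Of these 14 genes, 2 were called lower and 0 higher. Transcripts of other cells moved with the label, and their part in the receptor results was not tested. The 20 monocyte and macrophage markers summed to 352 to 1137 CPM under the KO label and 58.9 to 102 CPM under the WT label, with 19 of 20 called higher. The 8 measured dendritic cell and MHC class II genes summed to 461 to 1333 CPM under the KO label and 64.8 to 112 CPM under the WT label, with 6 of 8 called higher, and the 7 measured neutrophil genes to 32.4 to 69.6 CPM under the KO label and 9.10 to 17.0 CPM under the WT label, with 5 of 7 called higher. No measured gene of these lists was at 0 counts in every library. In bulk RNA, fewer cells of a type and less RNA per cell cannot be told apart.

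Of the 9 receptors, 1 was called higher and 1 lower in the KO-labelled libraries by edgeR's quasi-likelihood test (Benjamini-Hochberg adjusted p below 0.05 over all 11354 genes), and 7 were not called. Ccr7 rose 2.01-fold, and Ccr8 fell to 0.641 of its level under the WT label. Among all genes 10.0% were called, 6.2% higher (704 genes) and 3.84% lower (436 genes). With libraries scaled to the T cell identity genes, the same test called 1081 genes higher and 229 lower. Ccr7 and Ccr8 were also the 2 receptors whose CPM did not overlap between the labels, as was the case for 16.0% of all genes (8.6% with the KO label above and 7.37% with it below). None of the 3 receptors best known from monocytes and dendritic cells was called by edgeR. Of these 3, 1 (Ccr1) was higher at an unadjusted p below 0.05. DESeq2 and limma-voom each called 0 of the 3, and 1579 and 1384 of all 11354 genes. With only 3 genes, a count of 0 does not set them apart from all genes. The median log2 fold change (KO label over WT label) was 0.079 for the 6 receptors of T cells, 0.092 for the 3 of monocytes and dendritic cells, and -0.0026 over all genes.

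**Figure D1:**
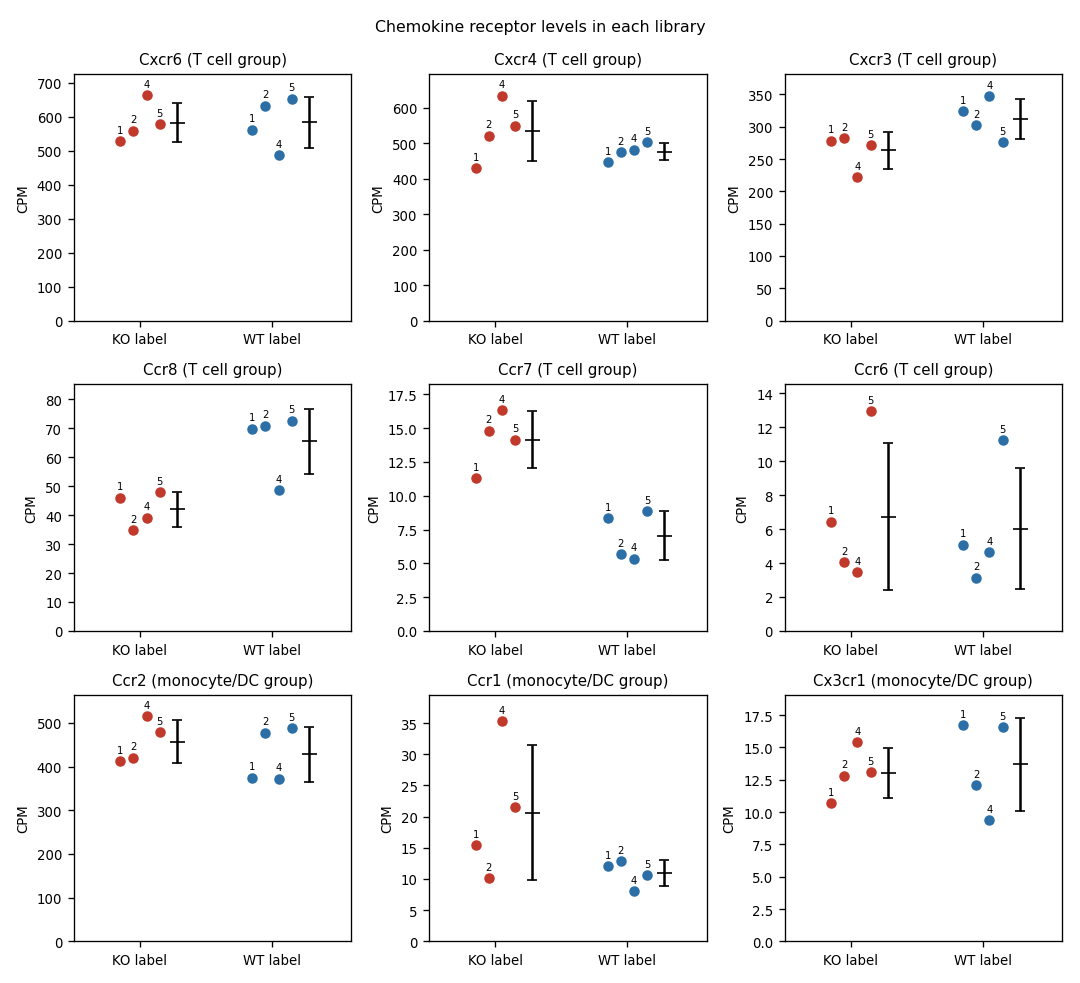
Level of each receptor in CPM (vertical axes, from 0) in the 4 KO-labelled libraries (left) and the 4 WT-labelled libraries (right), numbered by host, with mean ± SD (n = 4). Ccr7 lies above and Ccr8 below the WT-labelled libraries in all 4 KO-labelled libraries, and the labels overlap for the other 7 receptors.

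Levels of different receptors were compared per length, as RPKM (CPM divided by the deposited gene length in kilobases). Cxcr6 was the most abundant of the 9 at 303 ± 30.1 RPKM under the KO label and 304 ± 39.3 RPKM under the WT label (SD, n = 4 each, as for all levels that follow). Cxcr4 followed at 294 ± 46.4 RPKM under the KO label and 263 ± 12.8 RPKM under the WT label, and its range overlapped that of Cxcr6 under both labels. Cxcr3 came next at 164 ± 17.6 RPKM under the KO label and 194 ± 19.0 RPKM under the WT label. Ccr2 followed at 105 ± 11.2 RPKM under the KO label and 98.1 ± 14.5 RPKM under the WT label, without overlap with Cxcr3 under either label. These 4 genes held 93.0% to 94.8% of the summed receptor RPKM in the KO-labelled libraries and 91.6% to 94.0% in the WT-labelled libraries. Ccr8 stood alone in the middle at 36.3 ± 5.27 RPKM under the KO label and 56.6 ± 9.79 RPKM under the WT label, apart from Ccr2 above it and Ccr1 below it under both labels. Ccr1, Ccr7, Cx3cr1 and Ccr6 were low, with mean levels of 3.23 to 7.28 RPKM under the KO label and 2.90 to 3.85 RPKM under the WT label. In that low group neighbours in the order overlapped under the WT label, whereas under the KO label Ccr7 was above Cx3cr1 in all 4 libraries without overlap.

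Ccr7, the receptor for the lymph node chemokines Ccl19 and Ccl21a, was the receptor that rose. It was at 11.3, 14.8, 16.3 and 14.1 CPM in KO 1, KO 2, KO 4 and KO 5, and at 8.32, 5.68, 5.34 and 8.85 CPM in WT 1, WT 2, WT 4 and WT 5. All 4 KO-labelled libraries lay above all 4 WT-labelled libraries. The log2 fold change was 1.00 ± 0.18 (SE, 95% interval 0.59 to 1.42, edgeR adjusted p = 0.00692). Per 1000 CPM of the T cell identity genes, Ccr7 was at 1.34 ± 0.178 under the KO label and 0.634 ± 0.187 under the WT label (two-sided exact permutation p = 0.0286, the lowest value possible with 70 ways to split 8 libraries in 4 and 4, unadjusted among 18 such ratios, or 36 with the dendritic cell list and Cd3e as further divisors). Per 1000 CPM of the monocyte and macrophage markers it was at 21.8 ± 7.81 under the KO label and 88.0 ± 17.9 under the WT label, so its rise was smaller than that of the markers. Fscn1, an actin-bundling protein of mature dendritic cells, was at 1.91, 3.11, 2.23 and 2.42 CPM in the 4 KO-labelled libraries and at 0.881, 0.917, 0.860 and 0.861 CPM in the 4 WT-labelled libraries (log2 fold change 1.46 ± 0.19, SE, edgeR adjusted p = 0.00114). Of the same list, the dendritic cell factor Zbtb46 (0.098 ± 0.19, edgeR adjusted p = 0.833) and the integrin gene Itgax (0.45 ± 0.29, adjusted p = 0.405) were not called, and the part of these cells in the Ccr7 result was not tested. Without KO 2 and KO 4 the call ended (0.84, edgeR adjusted p = 0.0576). With the mean log2 CPM of the monocyte and macrophage markers as a covariate the direction turned (-0.25, edgeR adjusted p = 0.998), in a fit that called 5 genes of the whole table higher and 1 lower.

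Ccr8, a receptor of Th2 and tissue regulatory T cells that binds Ccl1 and, in the mouse, Ccl8, was the receptor that fell. It was at 46.0, 34.8, 39.1 and 48.0 CPM in KO 1, KO 2, KO 4 and KO 5, and at 69.9, 70.9, 48.6 and 72.6 CPM in WT 1, WT 2, WT 4 and WT 5. The labels did not overlap, but WT 4 lay next to KO 5 and far below the other WT-labelled libraries. The log2 fold change was -0.64 ± 0.14 (SE, 95% interval -0.96 to -0.32, edgeR adjusted p = 0.0186). Per 1000 CPM of the T cell identity genes, Ccr8 was at 3.99 ± 0.666 under the KO label and 5.85 ± 1.07 under the WT label, where the labels overlapped (exact permutation p = 0.0857). With libraries scaled to those genes the call held (-0.55, edgeR adjusted p = 0.0361). Without that scaling it also held by limma-voom (adjusted p = 0.0148) and by DESeq2 (adjusted p = 0.000147). The call was lost without WT 1 (-0.61, edgeR adjusted p = 0.0584), without WT 2 (-0.61, adjusted p = 0.0535), without KO 2 and KO 4 (-0.49, adjusted p = 0.106) and without KO 4 and KO 5 (-0.70, adjusted p = 0.0522). A number in the library names is 8 for KO 4 and KO 5 and 7 for the other 6 libraries. With it as a term the call was lost (-0.70, edgeR adjusted p = 0.0619). Only KO 4 and KO 5 carry the 8, so this is nearly the same check as leaving them out. With the myeloid markers as a covariate the value was -0.82 (edgeR adjusted p = 0.998).

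Cxcr3, the receptor for the interferon-induced chemokines Cxcl9 and Cxcl10, did not pass after adjustment. It was at 278, 283, 222 and 272 CPM in KO 1, KO 2, KO 4 and KO 5, and at 324, 302, 347 and 276 CPM in WT 1, WT 2, WT 4 and WT 5. KO 4 was the lowest library, and KO 1 and KO 2 lay above WT 5. The log2 fold change was -0.24 ± 0.091 (SE, 95% interval -0.45 to -0.040, edgeR unadjusted p = 0.0241, adjusted p = 0.139).

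Cxcr6, the receptor for the membrane-bound chemokine Cxcl16, was at 529, 559, 664 and 579 CPM in KO 1, KO 2, KO 4 and KO 5, and at 562, 633, 487 and 653 CPM in WT 1, WT 2, WT 4 and WT 5. The labels overlapped over most of their ranges, and the 95% interval of the log2 fold change was -0.23 to 0.22 (edgeR adjusted p = 0.993). Cxcr6 lies inside the span of Fyco1, a gene on the opposite strand at 83.9 ± 11.6 CPM under the KO label and 89.3 ± 5.94 CPM under the WT label. The sources used here do not give the strand setting of the counting, so the split of reads between these genes is uncertain.

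Cxcr4, the receptor for Cxcl12 that holds cells in the bone marrow and is carried by most leukocytes, was at 429.8, 522, 634 and 549 CPM in KO 1, KO 2, KO 4 and KO 5, and at 446, 476, 482 and 502 CPM in WT 1, WT 2, WT 4 and WT 5. KO 1 was the lowest of all 8 libraries and KO 4 the highest, so the WT-labelled libraries fell within the range of the KO-labelled ones. The log2 fold change was 0.16 ± 0.10 (SE, 95% interval -0.064 to 0.39, edgeR adjusted p = 0.387).

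Ccr6, the receptor for Ccl20, was at 6.44, 4.05, 3.46 and 12.9 CPM in KO 1, KO 2, KO 4 and KO 5, and at 5.09, 3.13, 4.65 and 11.2 CPM in WT 1, WT 2, WT 4 and WT 5. Host number 5 gave the highest value under both labels. The 95% interval of the log2 fold change, -0.92 to 1.24, was the widest of the 9 (edgeR adjusted p = 0.896). Values of either sign inside it were compatible with the data. The SD of log2 CPM within a label was 0.81 for Ccr6, against 0.10 for the median gene. The other 8 receptors ranged from 0.15 for Cxcr3 to 0.57 for Ccr1.

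Ccr1, a receptor for Ccl3, Ccl5, Ccl6 and Ccl9, was at 15.4, 10.2, 35.3 and 21.5 CPM in KO 1, KO 2, KO 4 and KO 5, and at 12.0, 12.8, 8.07 and 10.7 CPM in WT 1, WT 2, WT 4 and WT 5. KO 1, KO 4 and KO 5 were above every WT-labelled library, and KO 2 was below 3 of the 4. The log2 fold change was 0.92 ± 0.33 (SE, 95% interval 0.17 to 1.66, edgeR unadjusted p = 0.0213, adjusted p = 0.128). Without KO 2 it passed (1.14, edgeR adjusted p = 0.0352). It was smaller without KO 4 (0.53, edgeR adjusted p = 0.219) and without KO 4 and KO 5 (0.23, adjusted p = 0.616). By limma-voom it was 0.49 (adjusted p = 0.334). With the myeloid markers as a covariate the direction turned (-1.42, edgeR adjusted p = 0.998). The monocyte and macrophage markers summed to 629.6 CPM in KO 2 and 352 CPM in KO 1, while KO 4 was highest in both Ccr1 and the markers (1137 CPM).

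Ccr2, the receptor for Ccl2, was at 412, 421, 515 and 478 CPM in KO 1, KO 2, KO 4 and KO 5, and at 375, 478, 372 and 488 CPM in WT 1, WT 2, WT 4 and WT 5. The ranges of the labels overlapped widely. The log2 fold change was 0.092 ± 0.11 (SE, edgeR adjusted p = 0.693) with a 95% interval of -0.15 to 0.34, and the smallest log2 fold change among the 19 called monocyte and macrophage markers was 2.55, for Aif1. Cd68, the marker of that list that was not called, was at 0.61 (edgeR adjusted p = 0.0999).

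Cx3cr1 was at 10.7, 12.8, 15.4 and 13.1 CPM in KO 1, KO 2, KO 4 and KO 5, and at 16.7, 12.1, 9.38 and 16.5 CPM in WT 1, WT 2, WT 4 and WT 5. Every KO-labelled library lay inside the range of the WT-labelled ones, and the 95% interval of the log2 fold change was -0.50 to 0.34 (edgeR adjusted p = 0.872). In the GENCODE annotation a long Cx3cr1 model reaches across neighbouring genes, among them Csrnp1 at 439 ± 57.8 CPM under the KO label and 394 ± 38.9 CPM under the WT label. The sources used here do not name the annotation counted on, so the Cx3cr1 count is uncertain.

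Set against the monocyte and macrophage markers of the same library, all 3 of these receptors were lower under the KO label. Per 1000 CPM of those markers, Ccr1 was at 29.3 ± 11.5 under the KO label and 136 ± 15.3 under the WT label. Ccr2 was at 719 ± 313 under the KO label and 5470 ± 1225 under the WT label, and Cx3cr1 was at 20.1 ± 7.40 under the KO label and 169 ± 26.9 under the WT label. The marker sums themselves did not overlap between the labels, and all 9 receptors gave the smallest p that the design allows (two-sided exact permutation p = 0.0286), so this p does not set these 3 apart. The log2 differences of all 9 ran from -3.72 for Ccr8 to -2.06 for Ccr7, with Ccr1 next to Ccr7 at -2.29. Per 1000 CPM of the T cell identity genes, Ccr2 was at 43.2 ± 4.38 under the KO label and 38.2 ± 6.0 under the WT label (exact permutation p = 0.171), and Cx3cr1 was at 1.23 ± 0.163 under the KO label and 1.23 ± 0.361 under the WT label (exact permutation p = 0.914). Among the KO-labelled libraries, Ccr2 and Cx3cr1 had the same order as the marker sum, from KO 1 through KO 2 and KO 5 to KO 4. Cxcr4 and Cxcr6 of the T cell group had this order too, and Ccr1 did not, so it does not set the receptors of monocytes apart. For each of these receptors the order of the WT-labelled libraries differed from that of their marker sums.

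**Figure D2:**
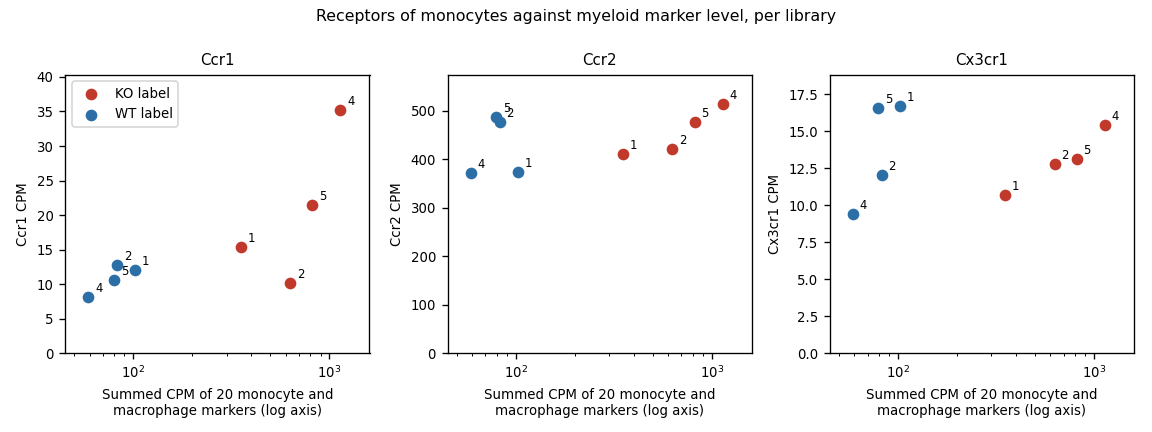
CPM of Ccr1, Ccr2 and Cx3cr1 (vertical axes, from 0) against the summed CPM of 20 monocyte and macrophage markers (horizontal log axis), 1 point per library, numbered by host. The marker sum is 352 to 1137 CPM under the KO label and 58.9 to 102 CPM under the WT label, while the Ccr2 and Cx3cr1 values of the labels overlap.

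**Figure D3:**
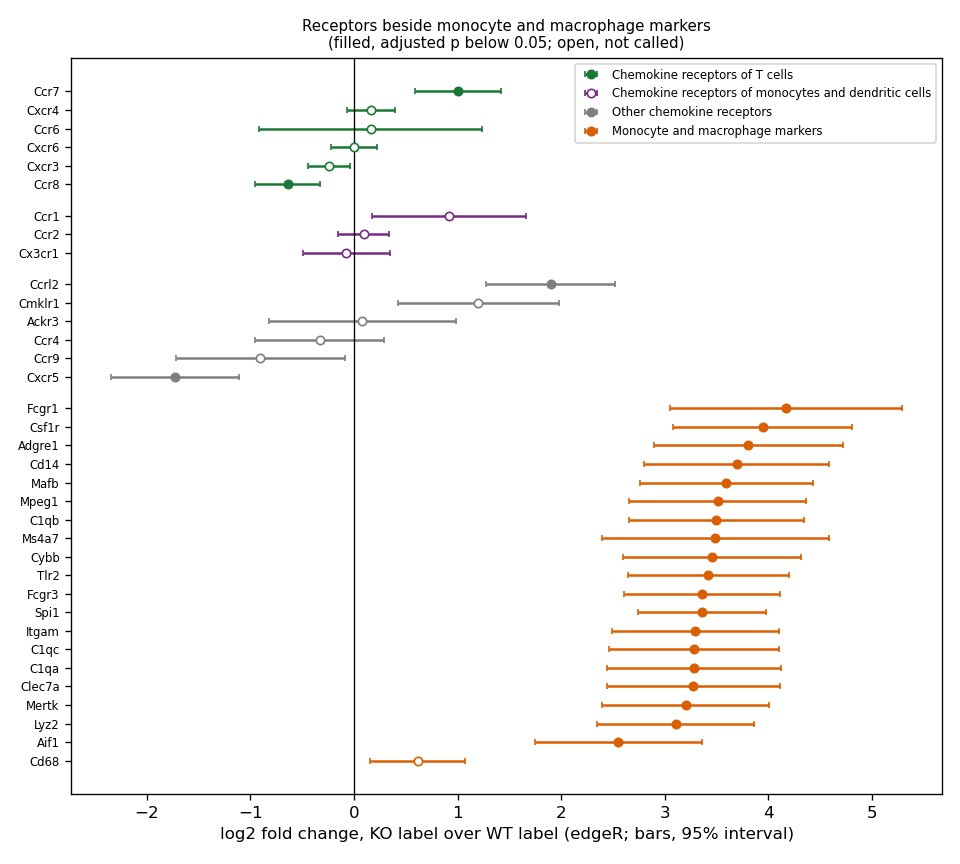
Log2 fold change (KO label over WT label) with 95% intervals for the receptors of T cells, those of monocytes and dendritic cells, other chemokine receptors and the monocyte and macrophage markers. Filled points passed edgeR's test at an adjusted p below 0.05, and the 19 called markers lie between 2.55 and 4.17, above all 9 receptors. Cd68, the marker not called, lies at 0.61, below Ccr1 and Ccr7.

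In GRCm38, with RefSeq positions, 5 of the 9 genes lie on chromosome 9. Cxcr4 lies on chromosome 1 (128588199 to 128592299), Ccr7 on chromosome 11 (99144199 to 99155077), Ccr6 on chromosome 17 (8236041 to 8258519) and Cxcr3 on the X chromosome (101731535 to 101734147). Cxcr6 (123806477 to 123811754), Ccr1 (123962126 to 123968692) and Ccr2 (124101918 to 124109140) form a group on chromosome 9 with gaps of 150.0 kb and 133 kb. Cx3cr1 (120048683 to 120068296) and Ccr8 (120092133 to 120094906) lie 23.8 kb apart, and of these neighbours Ccr8 was called and Cx3cr1 was not. Among the 6 measured genes within 300 kb of Ccr7, the smallest edgeR adjusted p was 0.116, for Smarce1. Among the 6 around Ccr8 it was 0.398, for Csrnp1. Lztfl1, 88.9 kb from Cxcr6, fell by 0.51 on the log2 scale (SE 0.078, edgeR adjusted p = 0.00256). Mpc1, a subunit of the mitochondrial pyruvate carrier 25.3 kb from Ccr6, rose by 0.31 (SE 0.063, edgeR adjusted p = 0.0132).

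RefSeq promoter windows, from 250 bases before to 50 bases after the annotated start in GRCm38.p6, were matched for 8 of the 9 receptors. The Ccr2 window lies wholly inside the gene span given above, so it belongs to a later start. The bases before the first base of that span were not searched for Ccr2. Shown are the neighbours Ccr8 (chr9:120091883-120092182, plus strand) and Cx3cr1 (chr9:120068247-120068546, minus strand), because only Ccr8 of the pair was called, and Ccr1 (chr9:123968643-123968942, minus strand) and Ccr2 (chr9:124101933-124102232, plus strand), the other receptors of monocytes. Each is written 5′ to 3′ on its gene's strand, and capitals mark a match to GAGGAA, a core bound by the myeloid ETS factor PU.1.
Ccr8: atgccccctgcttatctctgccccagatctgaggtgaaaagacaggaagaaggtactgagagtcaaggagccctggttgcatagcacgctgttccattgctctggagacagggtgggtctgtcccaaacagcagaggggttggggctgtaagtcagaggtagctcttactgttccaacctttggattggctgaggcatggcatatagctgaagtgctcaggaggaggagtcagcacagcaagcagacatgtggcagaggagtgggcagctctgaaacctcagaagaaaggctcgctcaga
Cx3cr1: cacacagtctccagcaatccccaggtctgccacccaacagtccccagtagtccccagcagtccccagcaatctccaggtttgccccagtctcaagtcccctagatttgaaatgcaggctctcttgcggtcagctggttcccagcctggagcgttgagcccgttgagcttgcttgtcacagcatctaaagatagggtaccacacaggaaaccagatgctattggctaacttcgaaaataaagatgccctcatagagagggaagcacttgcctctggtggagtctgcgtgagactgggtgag
Ccr1: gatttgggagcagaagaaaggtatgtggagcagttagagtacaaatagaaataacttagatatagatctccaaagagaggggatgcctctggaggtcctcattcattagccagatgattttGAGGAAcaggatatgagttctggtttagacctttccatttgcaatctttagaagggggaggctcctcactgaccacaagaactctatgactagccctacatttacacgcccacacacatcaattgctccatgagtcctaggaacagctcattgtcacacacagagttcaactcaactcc
Ccr2: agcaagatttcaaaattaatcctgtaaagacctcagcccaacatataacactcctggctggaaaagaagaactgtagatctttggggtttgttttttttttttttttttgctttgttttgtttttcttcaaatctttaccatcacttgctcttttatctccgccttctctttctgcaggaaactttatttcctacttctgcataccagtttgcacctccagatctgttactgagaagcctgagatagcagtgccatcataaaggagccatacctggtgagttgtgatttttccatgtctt
GAGGAA was searched on both strands. Ccr1 held it 129 bases before the start, Ccr6 and Cxcr3 held it on the other strand, and the windows of the other members held no match. It occurred in 28.3% of all 32851 promoter windows of this length. Spi1, the gene of PU.1, was at 4.79, 7.61, 11.6 and 8.70 CPM in the 4 KO-labelled libraries and at 0.808, 0.943, 0.708 and 0.705 CPM in the 4 WT-labelled libraries (log2 fold change 3.36 ± 0.28, SE, edgeR adjusted p = 0.000145). The AP-1 motif TGANTCA (7.81% of windows) and the T-box motif TCACACC (3.98%) were also searched on both strands, and neither was found in the members' windows. A match describes letters in a window and not binding.

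Of 15 other chemokine receptors listed, 7 were measured, and edgeR called 1 higher and 1 lower, 28.6% of the measured list against 10.0% of all genes. Ccrl2, an atypical receptor that binds chemerin without signalling and is known from activated macrophages, dendritic cells and neutrophils, was at 28.8, 46.8, 84.0 and 57.2 CPM in KO 1, KO 2, KO 4 and KO 5, and at 16.7, 14.7, 12.1 and 14.5 CPM in WT 1, WT 2, WT 4 and WT 5. All KO-labelled libraries were above all WT-labelled ones (log2 fold change 1.90 ± 0.28, SE, edgeR adjusted p = 0.00208), and they had the same order as their myeloid marker sums. With those markers as a covariate the direction of Ccrl2 turned (-0.91, edgeR adjusted p = 0.457). That fit called only 5 genes of the whole table higher and 1 lower. Cxcr5, which guides cells into B cell follicles, was at 13.8 ± 4.28 CPM under the KO label and 45.5 ± 16.4 CPM under the WT label and fell (log2 fold change -1.73 ± 0.27, edgeR adjusted p = 0.00316).

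Cmklr1, the signalling chemerin receptor, was at 14.5 ± 7.01 CPM under the KO label and 6.32 ± 2.39 CPM under the WT label (1.20 ± 0.35, edgeR adjusted p = 0.0608), and it passed without WT 5 (1.48, edgeR adjusted p = 0.0325) or KO 2 (1.38, adjusted p = 0.0378). Ccr9, the gut-homing receptor for Ccl25, was at 11.8 ± 4.44 CPM under the KO label and 22.1 ± 11.8 CPM under the WT label (edgeR adjusted p = 0.166). Neither passed in edgeR with TMM factors and all 8 libraries, and Cmklr1 did with libraries scaled to the T cell identity genes (1.27, edgeR adjusted p = 0.0363) and by DESeq2 (adjusted p = 0.00326). Ccr4, known from Th2 and regulatory T cells, was at 36.0 ± 14.8 CPM under the KO label and 45.3 ± 11.1 CPM under the WT label (edgeR adjusted p = 0.547), and Ackr3, a scavenger of Cxcl12, was at 0.973 ± 0.548 CPM under the KO label and 0.925 ± 0.236 CPM under the WT label (edgeR adjusted p = 0.944).

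Of 35 chemokines listed, 20 were measured, and edgeR called 8 higher and 0 lower. Over all genes 6.2% were called higher and 3.84% lower. DESeq2 called 0 chemokines lower and limma-voom 2, where they called 653 and 589 of all 11354 genes lower. At an unadjusted p below 0.05 edgeR had 3 chemokines lower, and the share of all genes at that p is not given here. The median log2 fold change of the 20 was 0.85, against -0.0026 over all genes. The myeloid markers were higher in the same libraries, and with them as a covariate none of the 13 measured ligands of the 9 receptors was called. That fit called only 5 genes of the whole table higher and 1 lower. The marker sums did not overlap between the labels, so it could hardly separate label from markers, and the part of myeloid cells was not tested.

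Cxcl9, a ligand of Cxcr3, was at 21.5, 35.4, 62.6 and 48.9 CPM in KO 1, KO 2, KO 4 and KO 5, and at 5.43, 4.82, 3.36 and 5.77 CPM in WT 1, WT 2, WT 4 and WT 5. The labels lay far apart (log2 fold change 3.12 ± 0.32, edgeR adjusted p = 0.000418). Cxcl10, another Cxcr3 ligand, did not pass (0.58 ± 0.19, edgeR adjusted p = 0.0985) but did without WT 5 (0.73, edgeR adjusted p = 0.0443) or KO 1 (0.71, adjusted p = 0.0329) and by DESeq2 (adjusted p = 0.0199). Cxcl16, the ligand of Cxcr6, was at 19.1 ± 7.15 CPM under the KO label and 2.14 ± 0.578 CPM under the WT label and rose (3.15 ± 0.31, edgeR adjusted p = 0.000414).

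Among the ligands of Ccr1, Ccl9 was at 7.36 ± 3.42 CPM under the KO label and 0.786 ± 0.232 CPM under the WT label (3.22 ± 0.37, edgeR adjusted p = 0.000594) and Ccl6 at 11.0 ± 5.45 CPM under the KO label and 1.44 ± 0.598 CPM under the WT label (2.93 ± 0.39, edgeR adjusted p = 0.00125). Both are macrophage chemokines, and both rose. Ccl5, which effector T cells make, was at 1031, 837, 1686 and 845 CPM in KO 1, KO 2, KO 4 and KO 5, and at 2054, 1916, 1992 and 1239 CPM in WT 1, WT 2, WT 4 and WT 5. KO 4 stood above WT 5, and the log2 fold change of -0.71 ± 0.24 did not pass (edgeR adjusted p = 0.103), although it did without KO 4 (-0.99, edgeR adjusted p = 0.00490) and by limma-voom (-0.89, adjusted p = 0.0135). Ccl3 (-0.34 ± 0.20, edgeR adjusted p = 0.351) also passed without KO 4 (-0.57, adjusted p = 0.0320).

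Ccl2, the ligand of Ccr2, was at 3.04 ± 1.38 CPM under the KO label and 0.435 ± 0.102 CPM under the WT label and rose (2.79 ± 0.38, edgeR adjusted p = 0.00146). Of the ligands of Ccr8, Ccl8 rose (1.89 ± 0.30, edgeR adjusted p = 0.00333), and Ccl1 was at 2.97 ± 2.36 CPM under the KO label and 4.17 ± 1.99 CPM under the WT label (edgeR adjusted p = 0.636). Cx3cl1, the ligand of Cx3cr1, was at 0.511 ± 0.375 CPM under the KO label and 1.21 ± 0.232 CPM under the WT label. Its log2 fold change of -1.22 ± 0.44 did not pass (edgeR adjusted p = 0.123). It did without KO 2 (-1.80, edgeR adjusted p = 0.0219), which held 40 counts, against 7 to 22 in the other KO-labelled libraries. Cxcl12 (0.71 ± 0.36, edgeR adjusted p = 0.282) and Ccl20 (1.30 ± 0.69, adjusted p = 0.304) did not pass, and the ligands of Ccr7 were not among the measured chemokines.

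**Figure D4:**
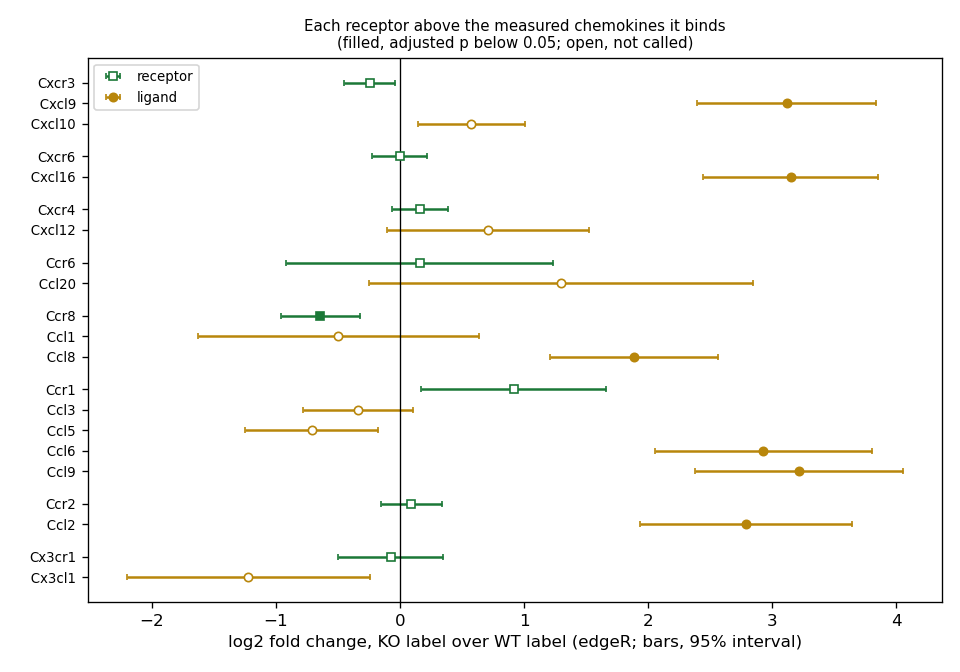
Log2 fold change (KO label over WT label) with 95% intervals for each receptor except Ccr7 and the measured chemokines it binds. Ccr7 is left out because its ligands were not among the measured chemokines. Filled points passed edgeR's test at an adjusted p below 0.05. Cxcl9, Cxcl16, Ccl9, Ccl6, Ccl2 and Ccl8 lie at 1.89 to 3.22, while the receptors shown lie between -0.64 and 0.92.

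Downstream of the receptors, 32 of 34 listed signalling genes (G proteins, kinases, arrestins and the machinery of cell movement) were measured. By edgeR's test 1 rose and 1 fell, 6.25% of the measured list against 10.0% of all genes, and the median log2 fold change was -0.010. Pik3r6, a regulatory subunit of the phosphoinositide kinase that G proteins activate, was at 2.72 ± 1.42 CPM under the KO label and 0.171 ± 0.0403 CPM under the WT label (3.96 ± 0.45, edgeR adjusted p = 0.000553). Rac2, the small GTPase of leukocyte movement, fell by 0.17 on the log2 scale (SE 0.046, edgeR adjusted p = 0.0461). The Rac2 call ended when any single library other than WT 5 was left out (edgeR adjusted p up to 0.133, without WT 1) and when libraries were scaled to the T cell identity genes (-0.084, adjusted p = 0.392) or the library code was a term (-0.15, adjusted p = 0.222). The kinase Ptk2b (-0.14 ± 0.044, edgeR adjusted p = 0.0870) passed without KO 4 (-0.16, adjusted p = 0.0465), on total library sizes (adjusted p = 0.0292), by limma-voom (adjusted p = 0.0421) and by DESeq2 (adjusted p = 0.0188). The regulator Rgs2 (0.35 ± 0.12, edgeR adjusted p = 0.110) passed with libraries scaled to the T cell identity genes (0.43, adjusted p = 0.0335) and by DESeq2 (adjusted p = 0.0329). The phospholipase Plcb2 (0.44 ± 0.16, edgeR adjusted p = 0.143) and the G protein subunit Gng2 (-0.13 ± 0.050, adjusted p = 0.159) did not pass.

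Of 15 other homing and retention genes, all measured, 2 rose and 1 fell by edgeR's test, where 6.2% of all genes rose and 3.84% fell. Gpr183, an oxysterol receptor that positions lymphocytes and dendritic cells, was at 244, 224, 205 and 222 CPM in KO 1, KO 2, KO 4 and KO 5, and at 132, 174, 119.8 and 174 CPM in WT 1, WT 2, WT 4 and WT 5. The labels did not overlap (log2 fold change 0.58 ± 0.12, edgeR adjusted p = 0.0143), and the call ended without WT 1 (0.52, edgeR adjusted p = 0.0520). Cd69, which retains T cells in tissue, was at 907 ± 81.9 CPM under the KO label and 731 ± 73.5 CPM under the WT label (0.31 ± 0.085, edgeR adjusted p = 0.0490) and lost its call whenever 1 library other than WT 5 or KO 2 was left out (adjusted p up to 0.130, without KO 1), on total library sizes (adjusted p = 0.0600) and when the library code was fitted (adjusted p = 0.177). Itgb2, the beta chain of leukocyte integrins, fell by 0.20 on the log2 scale (SE 0.042, edgeR adjusted p = 0.0158), and the call ended without KO 1 (-0.18, adjusted p = 0.0535), with libraries scaled to the T cell identity genes (-0.11, adjusted p = 0.242) and when the library code was fitted (-0.22, adjusted p = 0.0552). Itgal (-0.13, edgeR adjusted p = 0.154), Cd44 (0.31, adjusted p = 0.170) and the mucosal integrin Itgae (0.66, adjusted p = 0.183) did not pass, and Itgae did without KO 4 (0.88, adjusted p = 0.00855) and by limma-voom (adjusted p = 0.0379).

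Klf2 and S1pr1, picked once their values were known, are genes that accompany Ccr7 in recirculating T cells. Klf2 was at 486 ± 102 CPM under the KO label and 439.9 ± 57.6 CPM under the WT label (edgeR adjusted p = 0.636). S1pr1 was at 128 ± 22.2 CPM under the KO label and 144 ± 26.1 CPM under the WT label (edgeR adjusted p = 0.525). Neither passed.

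Genes with profiles most like each receptor were found by the root mean square difference of log2 CPM, each gene centred on its own mean over the 8 libraries, among genes whose log2 CPM averaged 1 or more. Nearest to Ccr7 were Fndc3b (0.16), Cnn3 (0.16) and Frmd4a (0.17), where the median gene was at 0.59. Nearest to Ccr8 were Cd200r1 (0.14), an inhibitory receptor of leukocytes, the complement regulator Cd55 (0.15) and the transporter Abcc3 (0.15), against a median of 0.40. Ccr1 was nearest to Spp1 (0.20), the osteopontin gene, then Vipr1 (0.25) and Acpp (0.27), against a median of 0.65. Among all genes, Cxcr3 was nearest to Ech1 (0.055), Cxcr4 to Aldoart1 (0.058), Cxcr6 to L1cam (0.059), Ccr2 to 1190002N15Rik (0.059), Cx3cr1 to Tmem163 (0.13) and Ccr6 to B3galt2 (0.34). Aldoart1 is a retrogene of an aldolase gene, so its count is uncertain where reads were shared. Among the receptors themselves the closest were Ccr2 and Cxcr6 (0.082), then Ccr2 and Cxcr4 (0.13). The measure covers 8 libraries under 2 labels, and genes called in the same direction are close by construction.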

How the data were processed

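Poly(A) RNA was sequenced in 8 libraries, 4 per label, with single reads of 81 bases from a stranded kit, per the labels' protocols. The authors deposited 1 table of whole-number counts per gene with a gene length. STAR and mm10 are named in the submitters' processing notes, without a STAR version. The sources used here do not give the counting tool, the annotation or the strand setting.

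Genes were tested with edgeR 4.0.16 (TMM, quasi-likelihood, filterByExpr, which removed no gene) in R 4.3.3, with Benjamini-Hochberg adjustment over all 11354 genes. Every gene of the table had at least 0.987 CPM in 4 or more libraries, and the sources used here do not say how the table was filtered. CPM used TMM-scaled totals, and RPKM the deposited lengths in bases. Ratios to marker sums were compared by exact permutation over libraries with SciPy 1.17.1. Alternatives used limma 3.58.1 and DESeq2 1.42.0, other scalings and filters, a block by host number, covariates and left-out libraries. The edgeR step was tested on simulated data.

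The 9 receptors and the gene lists were chosen with earlier results of these data known. Named are all 9, Nlrp6, the other measured chemokine receptors, all measured ligands of the 9, the 6 signalling and 6 homing genes with the smallest p, the 3 nearest profiles per receptor and genes within 300 kb; some items that this rule names are not reported here. Natural killer and innate lymphoid markers summed to 284 to 363 CPM under the KO label and 228 to 336 CPM under the WT label. Eomes held most of that sum, and 2 of the 7 measured, Tyrobp and Fcer1g, were called higher (log2 fold changes 3.35 and 3.65). Epithelial markers summed to 34.2 to 38.9 CPM under the KO label and 29.2 to 44.2 CPM under the WT label, and the 1 measured B and plasma cell marker to 0.764 to 2.29 CPM under the KO label and 1.29 to 1.86 CPM under the WT label.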

Additional observations from a re-analysis of the deposited data

Results flagged for a closer look

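In 5 of the 84 groups of 4 libraries examined, 1 library stood apart from the other 3 by more than Dixon's 95% critical value, and chance flags about 1 in 20 groups. Ccl1, a ligand of Ccr8, was at 6.51 CPM in KO 4, against 1.69 to 1.89 CPM in the other KO-labelled libraries. The integrin gene Itgae was at 50.6 CPM in KO 4, against 115 to 124 CPM in the other KO-labelled libraries. Itgb2 was at 953 CPM in KO 1, against 1009 to 1017 CPM in the other KO-labelled libraries. Ccr8 was at 48.6 CPM in WT 4, against 69.9 to 72.6 CPM in the other WT-labelled libraries, and without WT 4 its log2 fold change was -0.77 (edgeR adjusted p = 0.00339). Ccl5 was at 1239 CPM in WT 5, against 1916 to 2054 CPM in the other WT-labelled libraries.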

How the results depend on the processing

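Over 42 named genes and 21 settings, 765 of 882 values kept their direction and side of the threshold, 44 lost a call, 27 gained one and 46 turned direction. The whole table had 704 genes higher and 436 lower, and 1081 higher and 229 lower when scaled to T cell identity genes. With the library code as a term 249 were lower, and with the myeloid covariate 5 were higher and 1 lower. Leaving out 1 library gave 516 to 709 higher and 276 to 509 lower. Of the 9 receptors, 1 to 2 were then called higher and 0 to 1 lower. With the myeloid covariate or without KO 2 and KO 4, 0 of the 9 were called higher by edgeR, and with the library code, the myeloid covariate, without KO 2 and KO 4 or without KO 4 and KO 5, 0 were called lower. The last of these settings was chosen after seeing the data. Of the other receptors, 2 were called higher under T cell scaling and by DESeq2, 1 to 2 with 1 library left out, and 0 higher and 0 lower with the myeloid covariate. The counts of 0 here are edgeR's.

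Log2 fold changes that turned direction with the myeloid covariate were Ccr1 -1.42, Ccr2 -0.50, Ccr6 -0.040, Ccr7 -0.25, Cxcr3 0.29, Cxcr4 -0.64, Ccr9 0.25, Ccrl2 -0.91, Cmklr1 -0.83, Ccl6 -0.35, Ccl9 -0.035, Ccl2 -0.31, Ccl20 -0.95, Cxcl10 -0.89, Cx3cl1 0.66, Rgs2 -0.54, Plcb2 -0.26 and Gng2 0.074. With the library code these were Ccr2 -0.041, Ccr6 -0.20, Cxcr4 -0.0024 and Ccl20 -0.048, and without KO 4 and KO 5 Ccr2 -0.041, Ccr6 -0.20, Cxcr4 -0.0024 and Ccl20 -0.048. The code sets only KO 4 and KO 5 apart, so this is nearly the same check and not a further one. T cell scaling gave Cxcr6 0.082 and Cx3cr1 0.0018, which moved the median of all genes to 0.083. limma-voom gave Ackr3 -0.053, and leaving out KO 2 and KO 4 gave Ccr4 0.071. With 1 library left out, values ran from -0.37 to 0.65 for Ccr6, -0.087 to 0.056 for Cxcr6, -0.23 to 0.032 for Cx3cr1 and -0.31 to 0.32 for Ackr3. The cause was not tested.

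Libraries with the same host number had correlations of -0.060, 0.18, -0.14 and 0.26 between their deviations from the label means. Those with different numbers ran from -0.265 to 0.198. So few values cannot show whether the libraries are paired. The labels do not say that a shared number is 1 mouse, so the numbers were not taken to pair the libraries. With the replicate block, 638 genes were higher and 382 lower, Ccr7 was at 1.02 (edgeR adjusted p = 0.0373), Ccr8 at -0.64 (adjusted p = 0.0206), and Cxcr6 0.00090 and Ackr3 -0.011 turned direction, as did Ackr3 -0.012 with RLE factors as well. The block gave Ccl5 a call (-0.75, edgeR adjusted p = 0.0399; 0.0395 with RLE factors) and ended those of Rac2 (adjusted p = 0.0833) and Cd69 (adjusted p = 0.0609). With 3 against 4 libraries the ratios cannot give an exact permutation p below 0.0571, and sign flips of 4 pairs none below 0.125. With 4 libraries a label, low genes such as Ccr6 had wide intervals.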
